A study of Mus musculus with 2 samples.

Results

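The nuclear-encoded subunits of the mitochondrial respiratory chain and of the ATP synthase were described in mouse hippocampus. The members were chosen by name: every gene whose symbol begins with Ndufa, Ndufb, Ndufc, Ndufs or Ndufv and a number, Sdha to Sdhd, Uqcr, Cyc1, Cox4 to Cox8, or Atp5, and which has a protein_coding transcript. This gave 86 of 55536 annotated genes, under 85 symbols because Atp5o is annotated at 2 loci. Complex I had 37 members, complex II 4, complex III 9, complex IV 18 and complex V 18. The samples were 2 libraries of 1 group, made from 300 ng of total RNA each with ribosomal RNA reduced and ERCC spike-ins added. The tissue was labelled layer of hippocampus, from female B6CASTF1/J mice, an F1 hybrid strain, aged 25 days, with no treatment named. The libraries carry separate biosample entries and one donor entry, so their spread may be smaller than that between animals. With 1 library against 1, no test exists, and all differences below are descriptions.

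The respiratory chain passes electrons from NADH (complex I) or succinate (complex II) through ubiquinone, complex III and cytochrome c to oxygen at complex IV. Complexes I, III and IV pump protons across the inner mitochondrial membrane, and complex V, the ATP synthase, uses the returning protons to make ATP. The mitochondrial genome encodes a few hydrophobic subunits of every complex but complex II, and nuclear genes encode all others. In brain most ATP is made this way, largely to restore ion gradients after synaptic and electrical activity.

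Depth was 34919989 and 41206890 expected counts in replicates 1 and 2. The label was checked against marker genes: the excitatory-neuron kinase gene Camk2a stood at 1577 and 1349 TPM (a level scaled for transcript length and depth), the glutamate transporter gene Slc17a7 at 648 and 630.1 TPM, and the dentate granule-cell gene Prox1 at 45.9 and 37.9 TPM. The myelin gene Mbp stood at 974 and 987 TPM, so glia were present too. In bulk tissue, fewer cells of a type and less RNA per cell cannot be told apart. Of 3 choroid plexus genes, Ttr was at 23.5 and 55.1 TPM, Kl at 3.43 and 3.38 TPM, and Folr1 at 0 and 0.76 TPM on 0 and 14 counts. The part of choroid plexus in any difference between the libraries was not tested.

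Nearly every subunit gene was expressed, most of them highly. In the gene table, 80 of 86 members reached 1 TPM in both libraries, against 57.6% of nuclear protein-coding genes. Of the members, 76 exceeded 10 TPM in both libraries and 54 ranked among the top 1000 nuclear protein-coding genes by mean level. Their levels summed to 10804 TPM in replicate 1 and 11580 in replicate 2, which was 2.49% and 2.76% of the TPM of nuclear protein-coding genes. All members of complexes I, II and III were detected, as were 13 of 18 in complex IV and 17 of 18 in complex V.

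Typical levels were higher in complexes III, IV and V than in complexes I and II. The median member stood at 87.8 ± 3.41 TPM in complex I (SD of the 2 library medians, n = 2), at 80.7 ± 3.72 in complex II, at 153 ± 14.4 in complex III, at 137 ± 5.88 in complex IV and at 150.5 ± 7.57 in complex V. In both libraries the medians of complexes I and II lay under those of the other complexes. Complexes III and V did not differ beyond the spread between libraries: their library medians were 143 and 164 TPM for complex III and 145 and 156 TPM for complex V. The interquartile range over members was 72.6 to 106 TPM in complex I and 98.7 to 173 TPM in complex III. The complex IV median was 74.3 TPM when members that share at least 20% of the 50-base words of their leading transcript with another gene were left out. This setting drops the abundant Cox5b, Cox6c and Cox7c but keeps the low isoform genes, so the median falls on Cox7a2l. It is not a level of the abundant complex IV genes. With the effective lengths of the second deposited quantification, a setting chosen after seeing the data, the complex V median was 244 TPM.

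**Figure D1:**
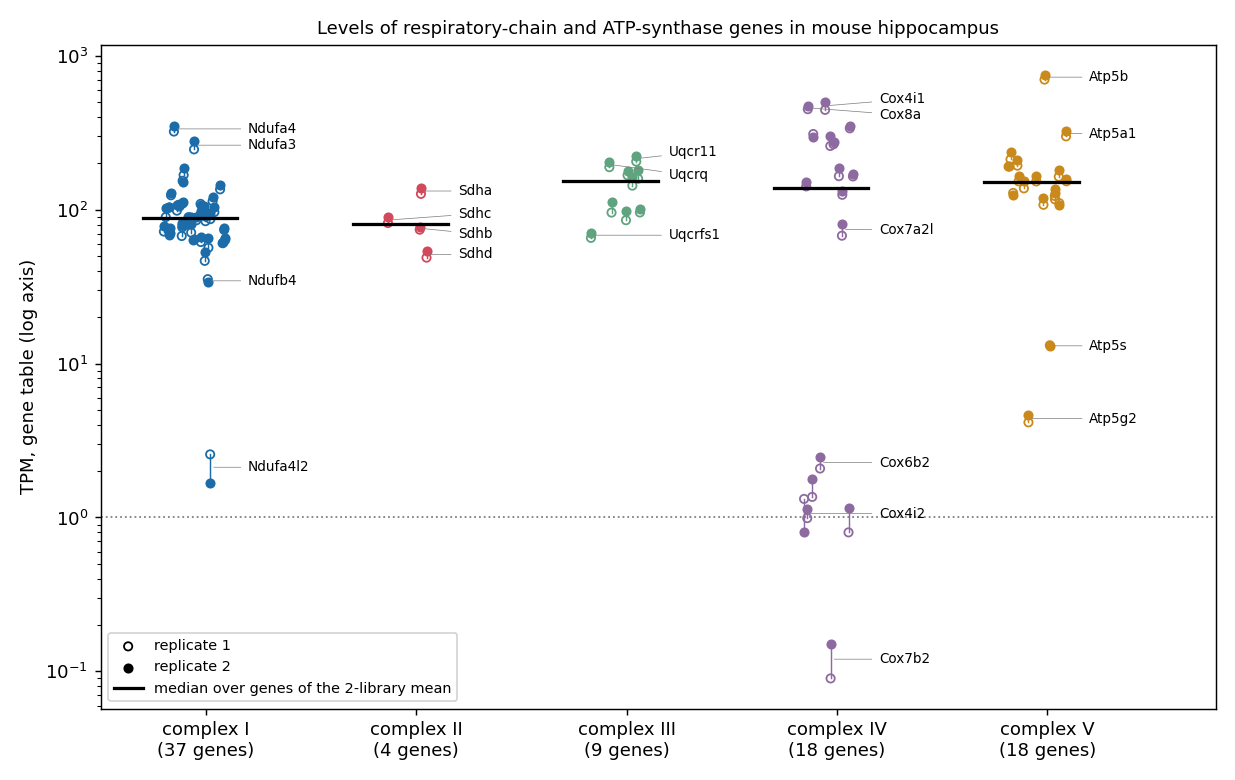
Level of each member in the gene table (TPM, log axis) by complex, with replicate 1 as open and replicate 2 as filled points joined by a line, and a bar at the median of the 2-library means. Most members lie between 35 and 500 TPM, and a low group under 3 TPM is made of Ndufa4l2 and complex IV isoform genes. Cox8c and the second Atp5o locus, both at 0, are not drawn, and the dotted line marks 1 TPM.

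In complex I the highest gene by symbol was Ndufa4, at 322 and 348 TPM, a small subunit later placed with complex IV by biochemical work. Ndufa3 (246 and 278 TPM), Ndufb9 (168 and 186 TPM), Ndufb8 (154 and 151 TPM) and Ndufc1 (136 and 145 TPM), all accessory subunits, followed. The lowest in the gene table was Ndufa4l2, a relative of Ndufa4 known to be induced by low oxygen, at 2.57 and 1.67 TPM. Ndufb4 at 35.4 and 33.6 TPM and Ndufb3 at 46.5 and 53.3 TPM came next. The order depends on the quantification: in the second, Ndufa3 was at 84.2 and 102 TPM and Ndufb4 at 88.4 and 100.8 TPM. Both lay near the complex I median there, 93.1 TPM. The 7 nuclear core subunits, which carry the flavin, the iron-sulphur clusters and the quinone site, had a median of 96.4 TPM against 86.5 TPM for the 30 accessory subunits. In the second quantification these medians were 93.6 and 92.5 TPM. The lowest of the core was Ndufs8, an iron-sulphur subunit, at 60.5 and 61.4 TPM. Ndufv1, which binds NADH, stood at 98.6 and 107 TPM.

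The 4 genes of complex II, succinate dehydrogenase, differed by less than 3-fold. Sdha, the flavoprotein that oxidises succinate, was highest at 127 and 138 TPM. Sdhb, the iron-sulphur subunit, was at 74.1 and 77.3 TPM. The membrane anchors were at 81.9 and 89.3 TPM (Sdhc) and 48.8 and 53.6 TPM (Sdhd). The order Sdha, Sdhc, Sdhb, Sdhd was the same in both libraries in this table, but the second quantification placed Sdhc at 49.99 and 47.9 TPM, below Sdhb at 82.0 and 85.7 TPM.

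In complex III the 4 highest genes in the gene table encode small subunits. Uqcr11 stood at 205 and 224 TPM, Uqcrq at 189 and 205 TPM, Uqcr10 at 167 and 179 TPM and Uqcrh at 159 and 181.5 TPM, while the small subunit Uqcrb was lower, at 95.8 and 112 TPM. The core proteins Uqcrc1 and Uqcrc2, which scaffold the matrix side, were at 143 and 164 TPM and at 95.9 and 102 TPM. Cyc1, cytochrome c1, was at 85.4 and 98.2 TPM and Uqcrfs1, the Rieske iron-sulphur protein, at 65.6 and 70.9 TPM. The median over the 5 small subunits was 173 TPM, against 80.0 TPM for the 2 redox subunits. In the second quantification these medians were 176 and 98.6 TPM, and Cyc1 lay above Uqcrc2 and Uqcrb.

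Complex IV held both the most abundant accessory genes and the most nearly silent ones. All its nuclear members are accessory, since its catalytic core is encoded in mitochondria. Cox4i1 stood at 445 and 501 TPM and Cox8a at 449.7 and 468 TPM. Cox6a1 was at 338 and 349.9 TPM, Cox5b at 310.2 and 299 TPM and Cox6b1 at 259 and 301 TPM. Cox7a2l, which joins complexes III and IV into larger assemblies, was lower, at 67.8 and 80.7 TPM.

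Where complex IV has a broadly expressed and a tissue-restricted isoform, the broad one made up over 99% of the pair. The share was 99.8% for Cox4i1 over Cox4i2, 99.5% for Cox6a1 over Cox6a2, 99.2% for Cox6b1 over Cox6b2, 99.3% for Cox7a2 over Cox7a1, 99.9% for Cox7b over Cox7b2 and 99.8% for Cox8a over Cox8b and Cox8c, as means of the 2 libraries. Cox6a2, Cox7a1 and Cox8b, known as heart and skeletal muscle isoforms, stood at 1.36 and 1.78 TPM, at 0.99 and 1.13 TPM and at 0.80 and 1.15 TPM. Each rested on 5 to 31 counts per library. Cox6b2, Cox7b2 and Cox8c, known from testis, stood at 2.08 and 2.47 TPM, at 0.09 and 0.15 TPM and at 0 TPM. Cox4i2, known from lung and as a gene induced by low oxygen, was at 1.32 and 0.80 TPM. Among muscle markers, Ckm was at 0.04 and 0 TPM, Myl2 at 0.35 and 0.37, Myh6 at 0.99 and 1.93 and Acta1 at 2.38 and 3.02, while the sperm genes Prm1 and Tnp1 were at 0. In the second quantification the lowest broad share was 98.8%, for Cox6b1. The count of 0 for Cox8c allows up to 3 counts per library, counting error only.

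**Figure D2:**
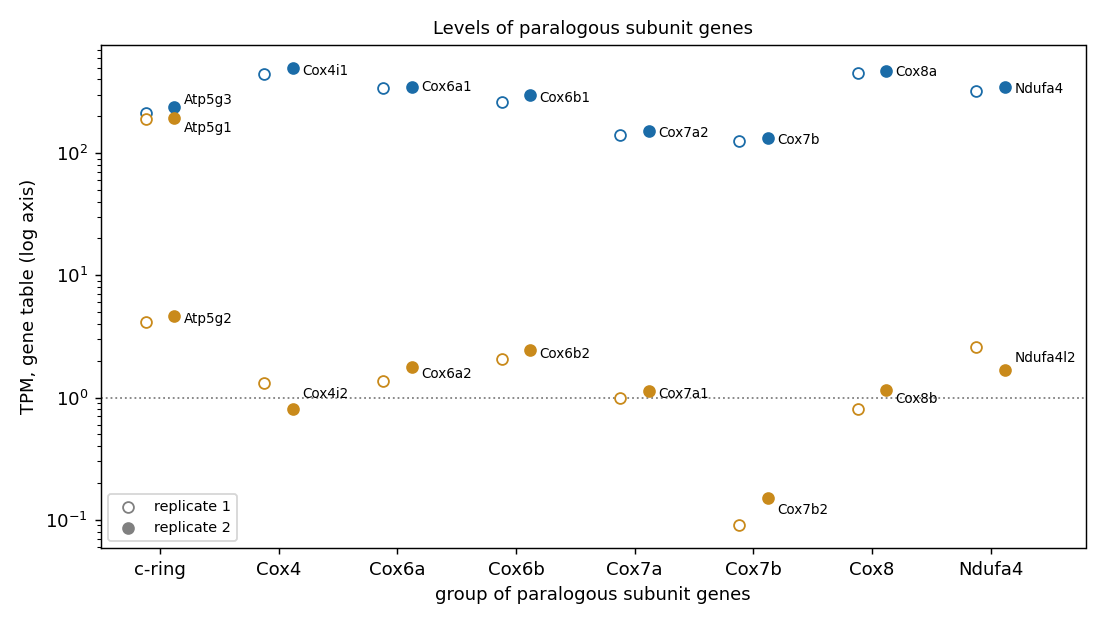
Levels of paralogous subunit genes in the gene table (TPM, log axis), with replicate 1 open and replicate 2 filled and the highest gene of each group in blue. In 7 of the 8 groups the other paralogues stood under 3 TPM, while in the c-ring group Atp5g1 and Atp5g3 were both near 200 TPM. Cox8c, at 0, is not drawn.

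Complex V was led by the catalytic head. Atp5b, the beta subunit on which ATP is made, was the highest member at 700.4 and 752 TPM and ranked 28 among nuclear protein-coding genes. Atp5a1, the alpha subunit, was at 299.6 and 325 TPM, although the head holds alpha and beta in equal numbers. The central stalk genes Atp5c1, Atp5d and Atp5e stood at 108 and 119 TPM, 153 and 159 TPM, and 123 and 135 TPM. The peripheral stalk genes ranged from Atp5f1 at 117 and 128 TPM to Atp5h at 193 and 209 TPM. The small membrane subunits Atp5mpl, Atp5l, Atp5k and Atp5j2 had a median of 136 TPM. Atp5s, a coupling factor, was low at 13.2 and 12.9 TPM. The second Atp5o locus (chr16:91684398-91926982), which overlaps Donson and the main Atp5o gene, was listed at 0 TPM.

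The c-ring, the proton-driven rotor, is built from identical copies of 1 mature protein that 3 genes encode. In the gene table Atp5g3 stood at 212 and 237 TPM and Atp5g1 at 190.5 and 193 TPM, while Atp5g2 was nearly absent at 4.15 and 4.63 TPM, or 62 and 86 counts. Thus Atp5g3, Atp5g1 and Atp5g2 took 53.4%, 45.6% and 1.04% of the c-ring TPM. The second quantification gave a different picture, with 45.9% and 47.6% for Atp5g3, 31.6% in each library for Atp5g1, and 22.5% and 20.7% for Atp5g2.

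The gene table with few Atp5g2 counts gave many to a processed pseudogene with the same letters. Gm10175 (chr7:23946646-23947290, minus strand, mm10) is annotated as a transcribed processed pseudogene. In the reference sequences, all 645 bases of its transcript were identical to bases 83 to 727 of the leading Atp5g2 transcript. A read with these letters matches both genes equally. The mice are F1 hybrids, and the alleles of the parent strains were not compared for this or any other copy. The gene table gave Gm10175 1334 and 1704 counts, and the second quantification gave it 0. Atp5g2 and Gm10175 together had 1396 and 1790 counts in the gene table, against 1213 and 1532 for Atp5g2 in the second quantification. With Gm10175 added, the pair took 20.8% and 20.2% of the TPM of these 4 genes. The last 150 coding bases are printed, as transcribed from Atp5g1 (chr11:96068852-96075670, minus strand), Atp5g2 (chr15:102662864-102672352, minus strand) and Atp5g3 (chr2:73908447-73911326, minus strand), to show how far the genes can be told apart. Capitals mark bases that differ from Atp5g2.
Atp5g2: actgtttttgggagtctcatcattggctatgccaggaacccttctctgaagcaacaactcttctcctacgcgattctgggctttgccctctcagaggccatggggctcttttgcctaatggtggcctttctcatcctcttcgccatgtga
Gm10175: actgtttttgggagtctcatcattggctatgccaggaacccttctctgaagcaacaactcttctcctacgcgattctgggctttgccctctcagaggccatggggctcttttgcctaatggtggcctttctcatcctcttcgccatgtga
Atp5g1: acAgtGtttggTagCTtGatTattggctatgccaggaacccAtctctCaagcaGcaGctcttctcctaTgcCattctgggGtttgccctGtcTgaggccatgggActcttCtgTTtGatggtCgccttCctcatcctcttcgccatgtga
Atp5g3: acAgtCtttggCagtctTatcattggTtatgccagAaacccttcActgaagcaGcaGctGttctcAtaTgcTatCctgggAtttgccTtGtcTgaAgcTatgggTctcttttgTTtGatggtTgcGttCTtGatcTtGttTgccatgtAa
Atp5g1 differed from Atp5g2 at 23 of these 150 bases (84.7% identical) and Atp5g3 at 33 (78% identical), whereas Gm10175 differed at 0. With these reference letters, reads over the marked bases can separate the 3 genes from each other, but not Atp5g2 from Gm10175. Another processed pseudogene, Gm10231 (chr17:5816200-5816640, minus strand), was identical to bases 141 to 581 of Atp5g2 over all its 441 bases. It had 0 counts in both quantifications.

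**Figure D3:**
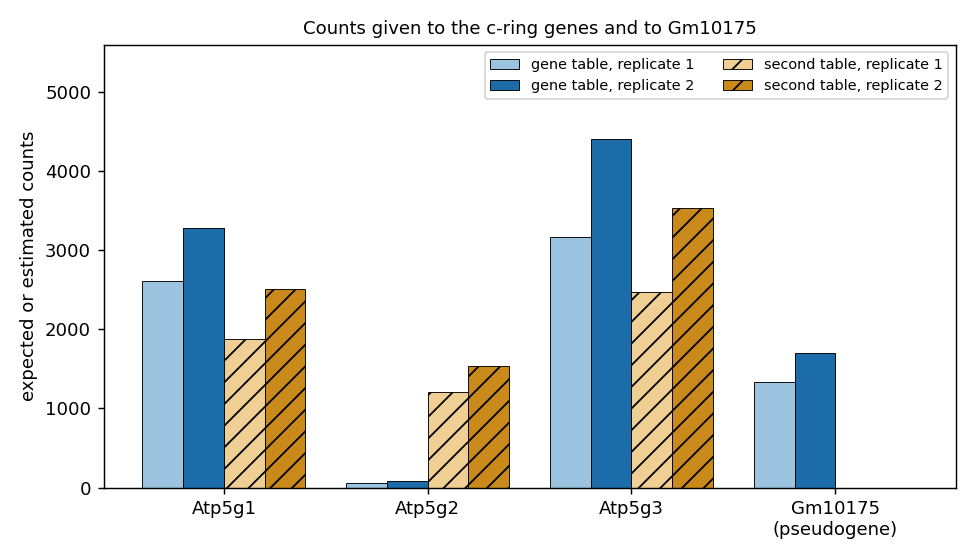
Counts given to Atp5g1, Atp5g2, Atp5g3 and the pseudogene Gm10175 by the gene table (expected counts, solid bars) and by the second table (estimated counts, hatched bars), for each library. Gm10175 has 1334 and 1704 counts in the gene table and no visible bar in the second, and Atp5g2 shows the reverse.

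Atp5g1 has a copy of its own, Gm10039 (chr11:100361716-100362126, minus strand), that differs from the leading Atp5g1 transcript at 1 of 411 bases. This is G456A, counted from 1 at the 5′ end of the transcript, with the Atp5g1 base first. The 57 bases that end at the stop codon are printed to show this base, in capitals.
Atp5g1: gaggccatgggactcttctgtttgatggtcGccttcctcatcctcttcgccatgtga
Gm10039: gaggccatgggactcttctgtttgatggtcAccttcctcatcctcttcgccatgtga
The gene table gave Gm10039 172 and 279 counts, and the second quantification gave it 0.

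Other members had such copies too. For 17 members at least 20% of the 50-base words of the leading transcript were also found in another annotated gene, and for 50 members no word was. The copies with the most counts in the gene table, after Gm10175, were Gm12338 for Cox7c (766 and 1193 counts), Ndufb4c for Ndufb4 (594 and 791), Gm10221 for Atp5l (563 and 590.4), Gm10250 for Atp5h (366 and 664), Gm6969 for Cox7a2l (305 and 426) and BC002163 for Ndufs5 (250.1 and 352). Gm12338 matched Cox7c over all of its 192 bases, and Gm10221 matched Atp5l over all of its 309. Of these 6 copies, only Gm6969 had counts in the second quantification, 28.1 and 46.1. The Ndufb9, Ndufb8 and Ndufb2 genes overlap annotated protein-coding loci (Gm49356, Gm20538 and Gm42420) that share their exon sequence, so their counts are uncertain in the same way.

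Levels of 12 members with at least 200 counts in the gene table differed at least 1.5-fold between the quantifications. The second quantification was rescaled to the gene-table total of nuclear protein-coding genes, and backgrounds here are shares of those genes. Over the 76 members with at least 200 counts over both libraries, it was at least 1.5-fold higher in 9 members (background 2.67%) and lower in 3 (background 2.41%). Those furthest above were Ndufb4 (2.74-fold), Cox7c (2.05-fold), Atp5e (1.81-fold), Cox7a2 (1.75-fold) and Atp5j2 (1.75-fold). Those below were Ndufa3, at 0.355 of its gene-table level, Ndufa1 (0.55) and Sdhc (0.57). Ndufb4 and Cox7c share at least 20% of their words with another gene, and the other 6 of these genes share under 20%. The median ratio of the second quantification to the gene table was 1.06 over the members and 0.943 over all nuclear protein-coding genes. Atp5g2 is not among these members because its gene-table counts fall under 200. It stood at 4.15 and 4.63 TPM in the gene table and at 103 and 102 TPM in the second quantification.

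**Figure D4:**
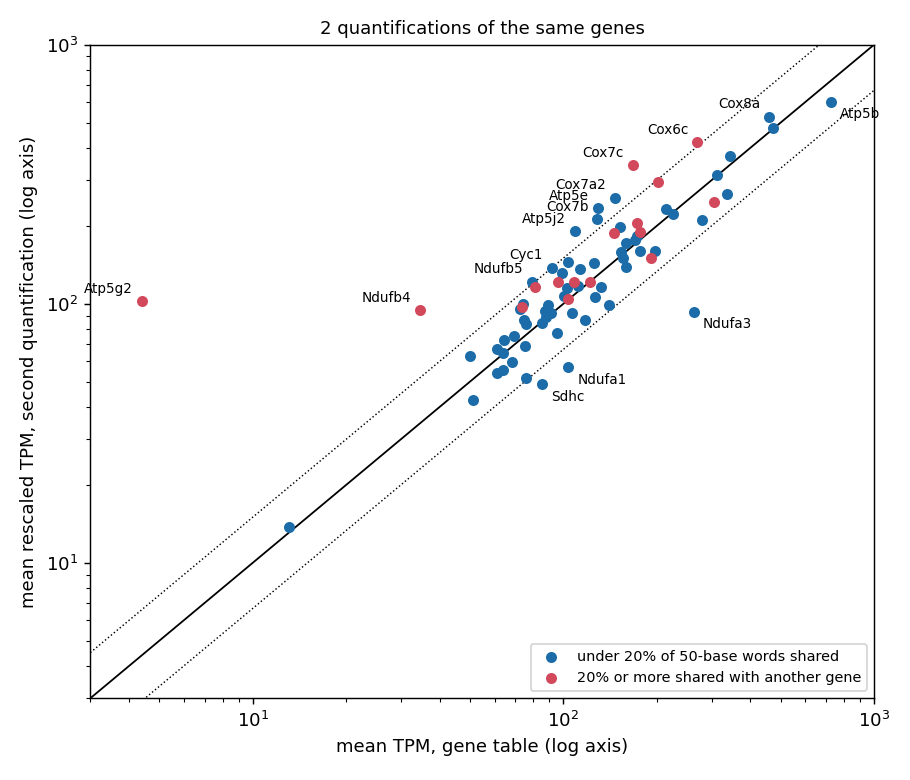
Mean level of each member with at least 200 counts, and of Atp5g2, in the gene table and in the second quantification (rescaled TPM), both on log axes. The solid line is equality and the dotted lines are 1.5-fold; red points share at least 20% of their 50-base words with another gene. Atp5g2 lies farthest above the line and Ndufa3 farthest below.

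At the transcript level most members had 1 dominant form in the gene-table quantification, to which the next counts belong. In 71 of the 80 detected members the leading transcript made up over 50% of the gene in both libraries, and in 37 over 90%. Its annotated type was not protein_coding in 8 members: Ndufa3, Ndufc1, Ndufa5, Ndufs4, Ndufb4, Cox5b, Cox7b and Atp5j. In 27 members, forms without the protein_coding type made up over 10% of the gene in both libraries. These assignments could differ between the quantifications for coding and non-coding forms, and transcript length was not compared with the difference. The coding Atp5g1-202 held 98.2% and 97.4% of Atp5g1 in the gene-table quantification and 0% in the second. The coding Ndufa9-203 held 98.5% and 95.5% of Ndufa9 in the first and 33.6% and 32.8% in the second. Others changed little, such as Sdha-201, at 91.1% and 90.2% and at 94.04% and 95.7%. Ndufa3-204, of 343 bases and annotated as subject to nonsense-mediated decay, held 90.5% and 92.5% of Ndufa3 in the gene-table quantification and 0% in the second. Atp5j-208, annotated with a retained intron, held 79.8% and 82.2% of Atp5j in the first and 2.03% and 0% in the second, where the coding Atp5j-203 held 79.7% and 86.3%. Cox7b-203, with a retained intron, went the other way, from 53.6% and 50.4% to 99.4% in each library. Ndufb4-202, with a retained intron, led in both, at 70.0% and 66.5% and at 86.03% and 89.2%. Gene levels above sum over all these forms, so they are not levels of coding message alone.

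The members differed little between the libraries, but mostly in one direction. Of 76 members with at least 200 counts over both libraries, 67 were higher in replicate 2 and 9 lower, where 34.7% of all 12962 annotated genes and 35.1% of nuclear protein-coding genes were higher. Ratios of replicate 2 to replicate 1 ran from 0.951 for Ndufb4 to 1.19 for Cox7a2l. At least 1.1-fold higher were 21 members (background 11.0%), at least 25% higher 0 (background 2.38%) and at least 20% lower 0 (background 13.1%). The median log2 ratio was 0.11 over the members and -0.07 over all genes, a gap of 0.18. It was 0.09, 0.12, 0.12, 0.08 and 0.12 in complexes I to V. The direction set against 0 depends on scaling: with spike-in scaling the member median was -0.01 and that of all genes -0.19, and 29 members were higher. A scaling moves members and all genes alike, so the gap can change only with the quantity compared: it was 0.18 for TPM, 0.17 for scaled counts and 0.21 for TPM of the second quantification.

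Cox7a2l, at 67.8 and 80.7 TPM, had the largest ratio, 1.19 with a 95% counting interval of 1.12 to 1.27. Ndufb2, an accessory subunit at 67.4 and 79.7 TPM, followed with 1.18 (1.09 to 1.28), and Uqcrb with 1.16 (1.07 to 1.26). At the other end, Ndufb4 had a ratio of 0.951 (0.837 to 1.08) and Cox5b 0.963 (0.914 to 1.01). In the second quantification both were higher in replicate 2, with ratios of 1.14 and 1.101. Both share words with a copy that holds counts in the gene table, Ndufb4c and Gm11273, and the part of these copies in the ratios was not tested. The interval lay wholly above 1 in 42 of the 76 members (background 11.2% of all genes) and wholly below 1 in 0 (background 37.4%). These intervals cover counting error only and not the spread between tissue samples.

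Transcript length moved with the same ratio. Among other nuclear protein-coding genes, 74.2% of those under 500 bases were higher in replicate 2, 61.7% of those from 500 to 1000 bases, 50% from 1000 to 1500 bases and 12.9% over 5000 bases. Members are short, with a median of 674 bases. In the 3 shortest bins, 11 of 13, 38 of 43 and 14 of 16 members were higher, and their median log2 ratio was 0.11 in each bin against 0.08, 0.04 and 0.00 for the other genes. Among other genes of at least 30 TPM, closer to the members in level, the medians were 0.08, 0.06 and 0.03, and 79.1%, 73.1% and 60.2% were higher. The part of length in the members' ratios was not tested beyond these bins.

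**Figure D5:**
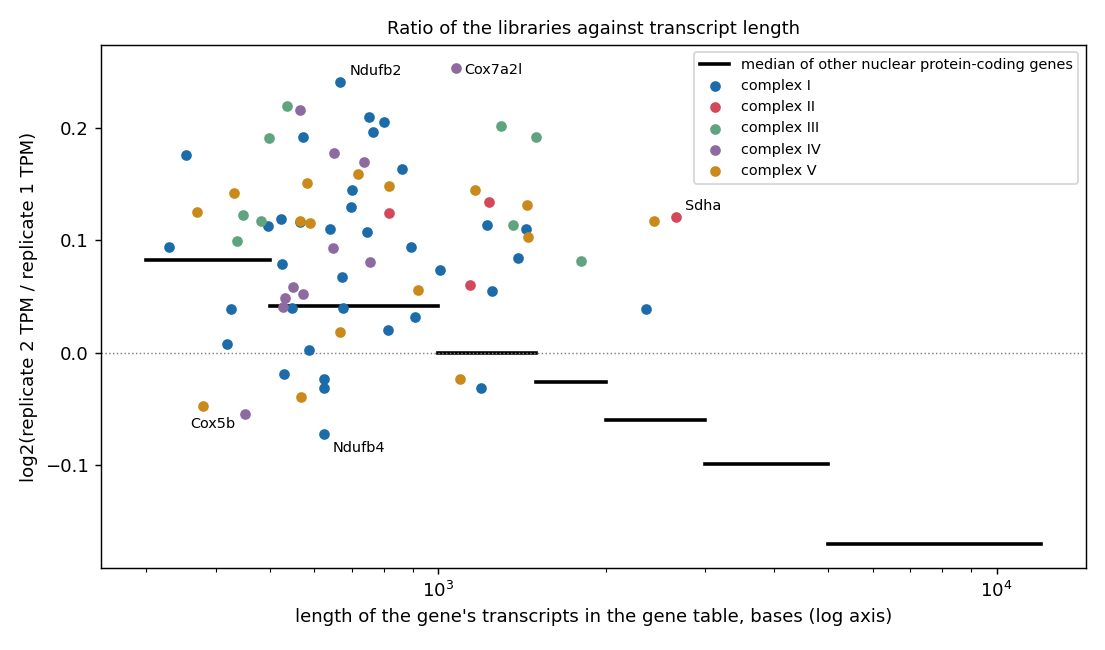
Log2 ratio of replicate 2 to replicate 1 TPM for the 76 members with at least 200 counts, by complex, against transcript length in bases (log axis), with black lines at the median of other nuclear protein-coding genes in 7 length bins, of which the last is open-ended. Most members lie above the line of their bin, and the line falls from 0.08 to -0.17 with length.

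Other genes of the same pathway were described from lists that include the assembly factors, the mitochondrial ribosome and known regulators. All 52 genes of the carrier and assembly list were detected, at a median of 15.9 TPM against 104 TPM for the members. Of 50 with enough counts, 27 were higher in replicate 2 (background for this and the next lists 34.7% of all annotated genes). The highest were Atpif1, the ATP synthase inhibitor, at 192 and 202 TPM and Ndufab1, the acyl carrier protein that also sits in complex I, at 129 and 129.9 TPM. Cytochrome c itself, Cycs, was at 18.4 and 19.5 TPM in the gene table but at 118 and 133 TPM in the second quantification. Mitochondrial ribosomal protein genes had a median of 22 TPM and 53 of 74 were higher in replicate 2. Cytosolic ribosomal protein genes, which are short and abundant like the members, had a median of 169.7 TPM and 67 of 73 were higher. Median lengths were 1365 bases for the carrier and assembly list, 1107 for the mitochondrial and 631 for the cytosolic ribosomal proteins. Of other nuclear protein-coding genes, 50% from 1000 to 1500 bases and 61.7% from 500 to 1000 bases were higher. The part of length in these counts was not tested.

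Regulators of these genes were expressed at moderate levels. The coactivator Ppargc1a was at 14.8 and 15.99 TPM, the nuclear respiratory factor Nrf1 at 10.8 and 7.99 TPM, the ETS factor subunit Gabpa at 11.1 and 9.79 TPM, Yy1 at 22.2 and 19.9 TPM, and Tfam, which drives transcription of the mitochondrial genome, at 18.7 and 20.1 TPM. Of the 9 listed, 3 were higher in replicate 2 (background 34.7% of all annotated genes), and Nrf1 had a ratio of 0.741. Their median length was 2943 bases, and 36.4% of other nuclear protein-coding genes from 2000 to 3000 bases were higher. Of the mitochondrially encoded subunits, 2 of 13 were higher in replicate 2, with a median log2 ratio of -0.15. In the gene table their median level was 1984 TPM. They had a median of 784 bases, and 61.7% of other nuclear protein-coding genes from 500 to 1000 bases were higher. The counts for all these lists rest on TPM as deposited. mt-Co1, the catalytic subunit of complex IV, stood at 5405 and 5292 TPM, and mt-Nd4 of complex I at 2178 and 1789 TPM. mt-Co2, 1 of the 2 higher in replicate 2, stood at 72.8 and 129.8 TPM in the gene table. In the second quantification it was lower in replicate 2, at 1035 and 668 TPM. Some other subunits were far lower there: mt-Atp8 went from 2795 and 2209 TPM to 0 in both libraries. mt-Nd4l went from 2361 and 1944 to 5.76 and 9.94 TPM, and mt-Nd3 from 1529 and 1376 to 14.7 and 504 TPM. mt-Co1 changed little, at 5505 and 5350 TPM. The cause of these differences was not tested.

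Promoters were read for the members in RefSeq's table (GRCm38.p6), from 250 bases before to 50 bases after the start. It held 73 promoters for 68 members. The NRF1 core GCATGCGC was found on either strand in 10 (13.7%) of them and in 2.71% of all 32851 promoters in the table. The ETS core CCGGAAG was found in 16 (21.9% against 8.86%), the YY1 core AAGATGGC in 10 (13.7% against 2.75%) and the GC box GGGCGG in 29 (39.7% against 35.7%). Member promoters were richer in G and C, with a median of 57.3% against 52.7%, and the part of this in the motif counts was not tested. The NRF1 and ETS cores occurred together in 5 promoters, those of Atp5k, Atp5l, Cox6a1, Sdhb and Uqcr11, which is 6.85% of the member promoters against 0.521% of all promoters. The promoters of Uqcr11 (chr10:80406772-80407071, minus strand), the highest gene of complex III, and Cox6a1 (chr5:115348909-115349208, minus strand) are printed to show both motifs in abundant members. Capitals mark every match to the 4 motifs on either strand. In Cox6a1 the NRF1 core overlaps its own reverse complement.
Uqcr11: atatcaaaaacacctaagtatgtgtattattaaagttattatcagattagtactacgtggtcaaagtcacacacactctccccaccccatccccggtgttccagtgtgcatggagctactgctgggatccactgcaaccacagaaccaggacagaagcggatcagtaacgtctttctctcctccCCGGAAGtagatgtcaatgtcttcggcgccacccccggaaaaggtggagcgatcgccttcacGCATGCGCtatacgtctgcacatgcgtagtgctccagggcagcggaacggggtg
Cox6a1: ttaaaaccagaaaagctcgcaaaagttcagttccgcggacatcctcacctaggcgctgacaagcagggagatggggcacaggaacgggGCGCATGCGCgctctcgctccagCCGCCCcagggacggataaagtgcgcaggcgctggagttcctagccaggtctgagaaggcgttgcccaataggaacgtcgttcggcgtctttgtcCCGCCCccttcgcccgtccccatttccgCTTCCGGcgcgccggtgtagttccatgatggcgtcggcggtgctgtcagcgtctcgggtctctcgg
A match of letters is a description and shows no binding. Among members over 10 TPM, the median level was 126 TPM for the 9 with the NRF1 core and 108 TPM for the 54 without it, and 137 TPM for the 16 with the ETS core against 106 TPM for the 47 without it. It was 115 TPM for the 10 with the YY1 core against 108 TPM for the 53 without it. With the GC box it was lower than without, at 106 TPM for 25 members against 119.8 TPM for 38. The interquartile range over all detected members was 75.5 to 168 TPM. The limit of 10 TPM left out Atp5g2, which has the NRF1 core and the GC box. It stood at 4.15 and 4.63 TPM in the gene table and at 103 and 102 TPM in the second quantification.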

How the data were processed

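Total RNA libraries of 1 group (n = 2) were analysed. Per the labels the build is mm10, and per the deposited notes the annotation is GENCODE M21. The aligner is not given in the sources used here. Per the file headers, the authors' gene-level and transcript-level tables give expected counts, TPM and each transcript's percent of its gene's TPM. Another transcript table of theirs, called the second quantification, holds estimated counts and TPM. Effective lengths were 99 bases under transcript length in the former and a median of 347 and 343 bases under it, for long transcripts, in the latter. Levels are TPM as deposited. Second-table TPM was summed per gene and rescaled so that nuclear protein-coding genes sum to the same total as in the gene table. Second-table library ratios of single genes use these rescaled values. Medians and counts of such ratios over the members use the TPM before rescaling. Library ratios needed a sum of 200 counts and had a floor of 3 counts. Each ratio has a 95% interval for counting error, by the exact Clopper-Pearson method on the pair of counts. Copies were genes that hold at least 20% (listed from 5%) of the 50-base words of a member's leading transcript, compared without gaps in the M21 transcript sequences. The ratio code was tested on simulated counts. Tools were R 4.3.3 with edgeR 4.0.16 (TMM factors) and DESeq2 1.42.0 (size factors), both on expected counts rounded to whole numbers, then scipy 1.17.1, pandas 2.3.3, matplotlib 3.10.9, numpy 2.4.6 and Python 3.11.15. The members and lists were chosen with earlier results of these data known. Named genes are the highest and lowest of each complex, paralogues, core subunits, the extremes of the library ratio and of the quantification difference, members led by a non-coding or unstable transcript, and genes that anchor the lists. The values of 1 member are not reported here.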

Additional observations from a re-analysis of the deposited data

How the results depend on the processing

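No paired analysis was possible because there is 1 group. The number of members detected, 80, was 83 at 0.1 TPM, 76 at 10 TPM and 79 in the second quantification. Complex medians in the second quantification were 93.1 (I), 66.4 (II), 185 (IV) and 161 TPM (V), and moved by less than the spread between libraries in III. Over the TPM of nuclear protein-coding genes alone they were 206, 189, 360.1, 322 and 353 for I to V. With protein_coding transcripts only they were 74.7 (I), 103 (III), 92.3 (IV) and 130.1 (V). Leaving out members under 1 TPM gave 176 in IV, and leaving out members that share at least 20% of their words with another gene 74.3. With the second table's effective lengths, chosen after seeing the data, they were 119, 96.5, 169 (III), 186 (IV) and 244. Leaving out either replicate gave 85.4 to 90.2 (I), 78.0 to 83.3 (II), 143 to 164 (III), 133 to 142 (IV) and 145 to 156 (V). Complexes I and II lay under III, IV and V in all of these settings except the omission of members with shared words. There IV, which keeps its low isoform genes, was below both. The median log2 ratio of the libraries was 0.20 with TMM or DESeq2 scaling, 0.16 over nuclear protein-coding genes, 0.17 in the second quantification and -0.00772 with spike-in scaling. Members at least 25% higher in replicate 2, of which there were 0, numbered 21 at 1.1-fold (11.0% of all genes), 2 with TMM or DESeq2 (3.30% and 3.29%), 6 in the second quantification (3.79%) and 2 with only 3 counts required in each library (7.99%), where 2 were at least 20% lower (27.3%). Of 28 single paralogue and transcript shares, 22 moved by more than 1 SD in the second quantification. The causes were not tested. Depth limits the isoform genes under 3 TPM, which rest on at most 31 counts each, or 46 for Ndufa4l2.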
